A study of Mus musculus with 14 samples.

Results

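Axon guidance ligands and their receptors were taken as all genes whose symbols start with Sema, Efna, Efnb, Slit or Ntn followed by a member number or letter (ligands) or with Plxn, Nrp, Epha, Ephb, Robo or Unc5, together with Dcc (receptors). This gave 69 of the 23412 genes counted, 35 ligands (20 semaphorins, 5 ephrin-A, 3 ephrin-B, 3 Slits and 4 netrins) and 34 receptors (9 plexins, 2 neuropilins, 9 EphA, 5 EphB, 4 Robo, 4 Unc5 and Dcc). All 69 matched a protein-coding gene of the RefSeq table. Cortex was compared between Control mice, Rpl22flox/flox;CamKCre+, and Fmr1 knock-out (KO) mice, Fmr1X-Y; Rpl22flox/flox;CamKCre+. Both genotypes thus carry the floxed Rpl22 (RiboTag) allele and the CamK-driven Cre, a driver of excitatory forebrain neurons, and the genotypes differ in Fmr1, which encodes FMRP, a protein that binds mRNA and represses translation. Total RNA was sequenced from 8 mice, numbered 1, 3, 6 and 8 (Control, n = 4) and 2, 4, 5 and 7 (KO, n = 4). Ribosome footprints, the mRNA fragments that ribosomes shield from nuclease, came from Control mice 1, 3 and 9 (n = 3) and KO mice 2, 4 and 10 (n = 3). Ages and the background strain are not given in the sources used here, and no isolation of tagged ribosomes is named, so both assays are read as whole cortex.

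Guidance ligands steer growing axons by attraction or repulsion and, in the mature cortex, act at synapses, on myelinating cells and on vessels. Semaphorins signal through plexins, with neuropilins as ligand-binding co-receptors of most secreted class 3 semaphorins. Slits bind Robo receptors, netrins bind Dcc and Unc5 receptors, and ephrins bind the Eph receptor tyrosine kinases, where both partners sit in membranes and signals can run both ways.

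Fmr1 served as the check of the labels. It was at 82.8 ± 8.41 CPM (counts scaled to a common library size, SD, n = 4) in Control RNA against 21.7 ± 2.44 CPM (SD, n = 4) in KO RNA, and at 113 ± 2.13 CPM (SD, n = 3) against 7.44 ± 1.44 CPM (SD, n = 3) in footprints. Libraries held 8847547 to 11371851 counts in RNA and 4124065 to 6033030 in footprints. RNA libraries of KO mice 2, 4 and 7 differed little beyond counting noise (chi-square per degree of freedom 1.18 to 1.32), as did the same-genotype footprint libraries (1.15 to 1.42), whereas RNA of KO mouse 5 differed from that of the other KO mice by 5.64 to 6.02 and Control RNA libraries from each other by 1.99 to 11.8. P-values therefore measure the spread between these libraries. Markers of cortical excitatory neurons were present, with summed RNA of 2533 to 2801 CPM in Control and 3189 to 3433 CPM in KO mice. Their summed footprints overlapped, at 5594 to 5748 CPM in Control and 5414 to 5650 CPM in KO mice. All 8 immediate early genes listed were higher in KO mice in both assays, and no listed marker was at 0 in RNA. In bulk tissue, fewer cells of a type and less RNA per cell cannot be told apart.

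In ribosome footprints, more guidance genes were lower than higher in KO cortex, above all among the receptors. Levels are given as CPM, which is not scaled by gene length and is compared within a gene only. In footprints 24 of 66 members tested fell (36.4%) and 4 rose (6.06%). Over all 12158 genes tested 25.5% were called, 13.6% lower and 11.9% higher. A gene is said to rise, fall or be called where its adjusted p was under 0.05 in edgeR's quasi-likelihood test with Benjamini-Hochberg adjustment over all genes. Of 32 receptors, 16 fell and 2 rose, with a median log2 fold change (KO minus Control) of -0.14. Of 34 ligands, 8 fell and 2 rose, with a median of -0.11, which was -0.0454 without KO mouse 10 and -0.0535 on plain library sizes. The receptor median was -0.0807 on plain library sizes. The median of all genes was 0.0055. On plain library sizes, where 66.3% of all calls were higher in place of 46.7%, 15 members fell and 6 rose. Footprint calls lost with DESeq2 were those of Efna3, Epha3, Epha4, Epha6, Ephb6, Plxna2, Robo2, Sema4a, Sema4d, Sema5a, Sema6a, Sema6b, Slit3, Unc5b and Unc5c. Those lost in one fit over all 14 libraries were Epha3, Epha4, Epha5, Epha6, Ephb6, Plxna2, Robo2, Sema4d, Sema6a, Sema6b, Slit3 and Unc5b. Those lost on plain library sizes were Epha3, Epha6, Plxna2, Robo2, Sema4d, Sema6a, Sema6b, Slit3 and Unc5b. Members were counted more deeply than the typical gene, with a median of 231 counts per footprint library against 136 for all genes tested. Ligands were at 136 and receptors at 239 on the same measure, and the part of depth in the count of calls was not tested. Same-genotype libraries also varied less in footprints (biological coefficient of variation 0.0211) than in RNA (0.077), so the counts of calls in the 2 assays are not comparable in size.

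In RNA the members moved both ways. Of 67 members tested, 12 were called (17.9%), against 7.41% of all genes tested. Members had a median of 489 counts per RNA library against 283 for all genes, with ligands at 258 and receptors at 704. Of these, 6 rose (8.96%) and 6 fell (8.96%), where 3.53% of all 13507 genes rose and 3.88% fell. Those that rose were Efna5, Efnb2, Robo3, Sema4g, Sema7a and Unc5a, and those that fell were Epha3, Nrp2, Plxnc1, Robo1, Sema3b and Unc5d. Ligands had 4 rises and 1 fall, receptors 2 rises and 5 falls, and the medians were -0.00033 and -0.02 beside -0.0013 over all genes. Epha3 and Nrp2 kept their RNA calls in all 8 fits that left out a mouse, and Robo1 lost its call without KO mouse 4. All RNA calls of members were lost with Control mice 1 and 3, and KO mice 2, 4 and 7, summed. They were also lost in mice 5 to 8 alone. In these 2 settings the edgeR adjusted p was 0.2 and 0.236 for Epha3 and 0.181 and 0.152 for Nrp2. The calls of Efnb2, Plxnc1, Sema4g, Sema7a, Unc5a and Unc5d were each lost without any 1 of Control mice 1, 3 and 6 and KO mice 2, 4 and 7. That of Efna5 was lost without any 1 of Control mice 1, 3 and 6 and KO mice 2 and 7, that of Robo3 without any 1 of Control mice 1, 6 and 8 and KO mice 2, 4 and 7, and that of Sema3b without any 1 mouse other than Control mouse 8. Efna4 and Epha1 were too low to be tested in either assay and Epha2 was tested in RNA only. Efna4 did not exceed 0.395 CPM in any RNA library. Among called members, Sema3b, Unc5a and Epha5 overlap another coding gene in RefSeq (Lsmem2, Hk3 and Gm42163), and how shared reads were counted is not given in the sources used here.

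Translational efficiency (TE), footprints per unit of a gene's RNA, was tested as the interaction of genotype and assay over all 14 libraries. It fell for 5 of 66 members (7.58%), Plxna2, Plxna4, Plxnb3, Plxnd1 and Robo1, and rose for 1 (1.52%), Efna3. Over all 12145 genes 7.81% were called, 4.41% lower and 3.4% higher, beside 9.09% of the members. All 5 falls were receptors. Of the 66 members, 53 had a negative TE change, as did 6288 of all 12145 genes, with a median of -0.12 in ligands and -0.16 in receptors beside -0.01 over all genes. With the mouse as a replicate block, 7 members fell and 0 rose, among 1811 genes called in place of 949, and the calls of Efna3 and Plxna4 were lost. The TE medians were then -0.0579 in ligands and -0.168 in receptors. With the title prefix as a block, 2 members fell and 1 rose, among 786 genes called. The calls of Plxna2 (edgeR adjusted p = 0.0697), Plxna4 (0.0672) and Robo1 (0.0647) were lost in that fit. On plain library sizes, where 68.2% of all calls were higher in place of 43.5%, 2 members fell and 1 rose. The TE medians there were -0.0494 in ligands, -0.0939 in receptors and 0.0559 over all genes.

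The calls of the tests overlapped in part. Of the 12 members called in RNA, 6 (50%) were among the 28 called in footprints, which is 21.4% of the footprint calls, and all 6 moved the same way. These were Epha3, Nrp2, Plxnc1, Robo1 and Unc5d, all lower, and Sema7a, higher. Of all 66 members tested in footprints, 42.4% were called there, which is near the 50%. The same overlap over all genes is not given here. The 6 TE calls were all called in footprints as well, in the same direction. TE is computed from the same libraries as the other tests, so these shared calls do not support each other. Of the 66 members tested in both assays, 30 were lower in both, 16 higher in both, 15 higher in RNA and lower in footprints, and 5 the reverse.

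**Figure D1:**
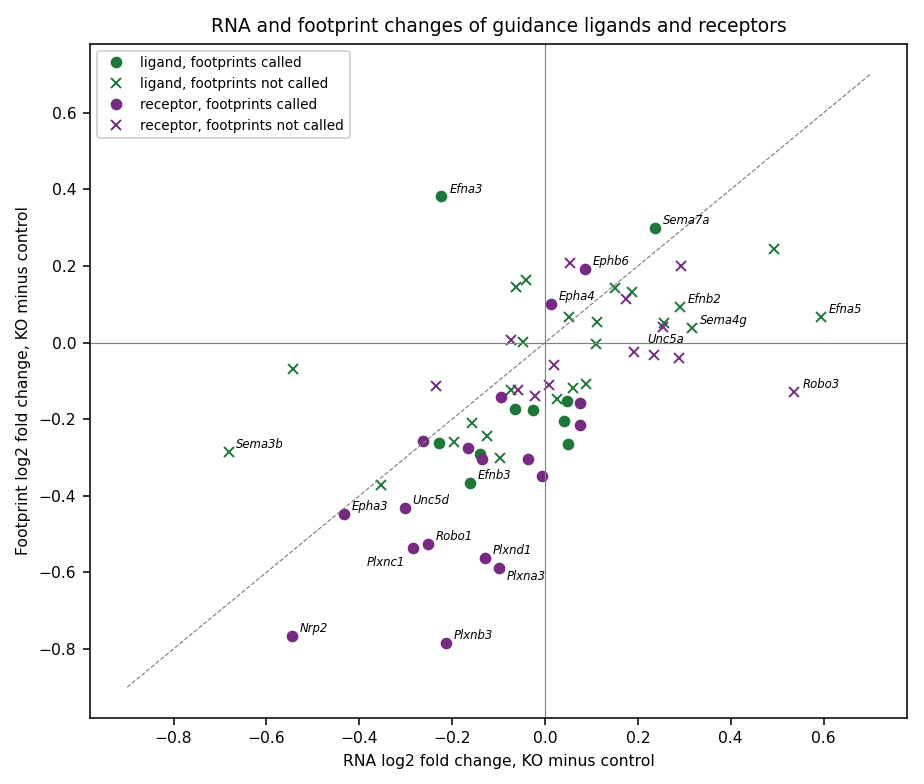
RNA log2 fold change (KO minus Control, horizontal) against footprint log2 fold change (vertical) of the 66 members tested in both assays. Dots are members called in footprints, crosses members not called, green marks ligands and purple receptors, and the dashed line marks equal change. Of the 24 members called lower in footprints, Plxnb3 and Nrp2 lie lowest, and of the 4 called higher Efna3 lies left of zero on the RNA axis.

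Plexins, the signalling receptors of semaphorins, carried the most called falls of any receptor family. All 9 plexins had lower footprints in KO cortex, of which 6 passed the test (66.7%, against 13.6% of all genes lower). All 9 had a negative TE change, of which 4 passed (44.4%, against 4.41%). The family median was -0.22 in footprints and -0.26 in TE, against -0.06 in RNA, where Plxnc1 alone was called. Plxnb1 (-0.12 in footprints), Plxnb2 (-0.06) and Plxna1 (-0.14) did not pass.

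Plxnb3, a B-class plexin expressed by oligodendrocytes, had the largest footprint change of all members. Its footprints were at 79.7, 73.2 and 83 CPM in Control mice 1, 3 and 9 and at 45.4, 46.3 and 45 CPM in KO mice 2, 4 and 10. Every KO library lay well below every Control library, a log2 fold change of -0.78 ± 0.077 (SE, edgeR adjusted p = 6.88e-15). Plxnb3 RNA was at 55.2, 51.2, 57.1 and 57.9 CPM in Control mice 1, 3, 6 and 8 and at 49.1, 51.1, 43.1 and 47.6 CPM in KO mice 2, 4, 5 and 7. KO mouse 4 came within 0.1 CPM of Control mouse 3, and the RNA change of -0.21 ± 0.072 did not pass (edgeR adjusted p = 0.0845). TE fell by 0.58 ± 0.11 on the log2 scale (edgeR adjusted p = 0.0014). Oligodendrocyte markers summed to 5149 to 5652 CPM in Control and 4526 to 4879 CPM in KO RNA, without overlap, with 7 of 8 lower and 1 called. In footprints they summed to 8775 to 8930 CPM and 8618 to 8643 CPM, with 3 called higher and 3 lower. Markers of oligodendrocyte precursors summed to 216 to 227 CPM in Control and 185 to 197 CPM in KO RNA, with 1 of 4 called lower, and to 383 to 393 and 286 to 301 CPM in footprints, with 3 called lower. Their part in the Plxnb3 change was not tested.

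Plxnd1, a plexin known as a receptor of Sema3e on vessels and neurons, had the other plexin TE call that held in every setting. Control footprints were at 130, 125 and 135 CPM and KO footprints at 83.5, 89.7 and 90.2 CPM. The groups did not overlap, and the log2 fold change was -0.56 ± 0.058 (SE, edgeR adjusted p = 6.39e-14). In RNA, Control libraries were at 159, 176, 176 and 167 CPM and KO libraries at 146, 145, 180 and 151 CPM. KO mouse 5 was above every Control mouse and the other KO mice were below all of them. The TE change was -0.44 ± 0.1 (SE, edgeR adjusted p = 0.00846). The endothelial marker list had 2 of 9 members called higher and 1 lower in footprints.

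The A-class plexins, which pair with neuropilins to receive class 3 semaphorins and bind class 6 semaphorins directly, had 3 of 4 members called in footprints, all lower, where 13.6% of all genes were lower. Plxna4 footprints were at 142, 132 and 146 CPM in Control and 122, 118 and 121 CPM in KO mice, without overlap (-0.22 ± 0.053, edgeR adjusted p = 0.000819). Its RNA was at 178, 167, 163 and 171 CPM in Control and 177, 167, 203 and 171 CPM in KO mice. The RNA groups overlapped, KO mouse 5 was highest, and TE changed by -0.3 ± 0.091 (edgeR adjusted p = 0.0451). Plxna2, the plexin with the most footprint counts, was at 182, 187 and 185 CPM in Control and 177, 158 and 162 CPM in KO mice (-0.16 ± 0.046, edgeR adjusted p = 0.0057). Its RNA ran the other way, from 239 to 255 CPM in Control and from 256 to 263 CPM in KO mice, with no overlap, but did not pass (0.08, edgeR adjusted p = 0.375). The 2 opposite shifts gave a TE change of -0.24 ± 0.071 (edgeR adjusted p = 0.0408). The footprint call of Plxna2 was lost without KO mouse 4 and on plain library sizes (edgeR adjusted p = 0.101). The TE calls of Plxna2 and Plxna4 were each kept in 3 of the 10 fits that left out a mouse.

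Plxna3 had low and clearly separated footprints, at 25.9, 32.1 and 27 CPM in Control and 19.5, 16.8 and 20.5 CPM in KO mice. Its log2 fold change was -0.59 ± 0.12 (edgeR adjusted p = 7.49e-05), while its RNA changed by -0.1 (edgeR adjusted p = 0.584) and its TE by -0.5 ± 0.17 (edgeR adjusted p = 0.0752). Plxnc1, the plexin that binds Sema7a, was lower in both assays. Plxnc1 RNA was at 119, 122, 117 and 118 CPM in Control and 89.4, 91.7, 116 and 94.8 CPM in KO mice. KO mouse 5 lay just under the Control range and the other KO mice far under it (-0.28 ± 0.075, edgeR adjusted p = 0.0345). Plxnc1 footprints were at 53.3, 52.5 and 48.6 CPM against 32.8, 34.2 and 38.7 CPM (-0.54 ± 0.09, edgeR adjusted p = 1e-06). The groups were separate in footprints, and TE did not pass (-0.26, edgeR adjusted p = 0.208).

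**Figure D2:**
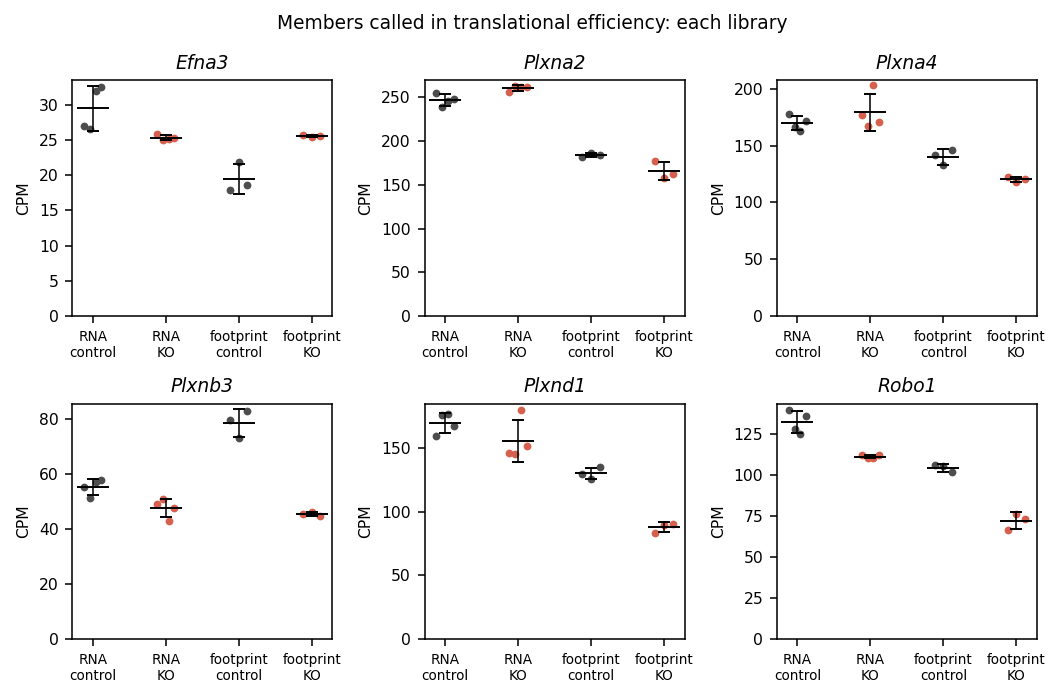
CPM (vertical, from 0) of the 6 members called in TE, each point one library, with bars for the mean and SD of 4 RNA and 3 footprint libraries per genotype. In Plxnb3 and Plxnd1 the KO footprints lie far below Control with RNA close together, and in Efna3 the KO footprints lie at 25.5 to 25.7 CPM above Control.

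Nrp2, the neuropilin that binds Sema3f, had the largest fall in both assays among members called in both. Nrp2 RNA was at 51.8, 47.2, 44.4 and 48.3 CPM in Control and 30.1, 33.7, 39.5 and 28.6 CPM in KO mice. No library overlapped, KO mouse 5 was nearest to Control, and the change was -0.55 ± 0.096 (edgeR adjusted p = 0.00462). Its footprints were at 56.6, 58.2 and 53.7 CPM in Control and 30.4, 32.9 and 35.4 CPM in KO mice (-0.77 ± 0.089, edgeR adjusted p = 1.2e-11). Nrp2 TE did not pass (-0.23 ± 0.14, edgeR adjusted p = 0.348). The other neuropilin, Nrp1, the co-receptor of Sema3a, had 48.2 to 52.8 CPM in Control and 46.3 to 55.2 CPM in KO footprints, overlapping ranges with a change of 0.0075 (edgeR adjusted p = 0.961). Its RNA change was -0.07.

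Since 5 members fell and 1 rose in RNA and footprints alike, promoters of such members were read from RefSeq (GRCm38.p6). The windows of Nrp2 (chr1:62703067-62703316, plus strand) and Epha3 (chr16:63864176-63864425, minus strand) are shown, as the 2 of the 6 whose 250 bases before the listed start lie outside the annotated gene. They are written 5′ to 3′ on the gene's strand with GC boxes (GGGCGG or its reverse complement) in capitals.
Nrp2: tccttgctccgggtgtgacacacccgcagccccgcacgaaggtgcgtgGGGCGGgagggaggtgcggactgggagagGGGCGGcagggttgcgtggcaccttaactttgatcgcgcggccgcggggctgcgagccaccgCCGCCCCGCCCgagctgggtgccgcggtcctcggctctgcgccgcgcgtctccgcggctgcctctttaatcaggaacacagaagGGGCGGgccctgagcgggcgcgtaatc
Epha3: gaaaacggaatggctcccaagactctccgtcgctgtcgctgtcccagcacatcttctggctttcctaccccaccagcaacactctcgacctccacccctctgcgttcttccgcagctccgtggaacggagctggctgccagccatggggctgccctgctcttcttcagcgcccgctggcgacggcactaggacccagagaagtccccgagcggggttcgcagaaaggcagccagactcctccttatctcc
The Nrp2 window held 5 GC boxes, a pair of which overlap, and the Epha3 window none. Over the 59 members with a window, 72.9% held a GC box, against 42.7% of 17492 protein-coding genes. The TATA box TATAAA was in 3.39% against 12.4%, CCAAT in 27.1% against 36.5%, TGACGTCA (CRE) in 1.69% against 1.98%, TGANTCA (AP-1) in 1.69% against 6.18%, and GCGTGGGCG (EGR) in 3.39% against 0.72%. Both strands were searched, an EGR match followed by G shares bases with a GC box, and these are counts of letters and not of bound sites.

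Robo receptors and their Slit ligands were lower in KO footprints where called. Robo1, the receptor through which Slits repel axons, was the one member called in RNA, footprints and TE. Its RNA was at 140, 128, 125 and 135 CPM in Control and 112, 110, 110 and 112 CPM in KO mice. The KO libraries were close together and all below Control (-0.25 ± 0.053, edgeR adjusted p = 0.0123). Robo1 footprints were at 106, 105 and 102 CPM against 66.6, 76.5 and 73.4 CPM, again without overlap (-0.53 ± 0.065, edgeR adjusted p = 7.76e-11). TE changed by -0.28 ± 0.085 (edgeR adjusted p = 0.0429), a call kept in 2 of the 10 fits that each left out a mouse. The Robo1 TE call was also lost with the title prefix as a block (edgeR adjusted p = 0.0647) and on plain library sizes (0.114). It was lost as well without the filter (0.0599) and with libraries summed (0.099). Robo2, the Robo gene with the most footprint counts, was at 209, 211 and 219 CPM in Control and 198, 193 and 189 CPM in KO mice, lower in every KO library (-0.14 ± 0.042, edgeR adjusted p = 0.00692). The Robo2 call was lost on plain library sizes (edgeR adjusted p = 0.139), with DESeq2 (adjusted p = 0.0622) and in one fit over all 14 libraries (edgeR adjusted p = 0.0934).

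Robo3, a divergent Robo known from commissural axons, rose in RNA, from 9.67, 12.3, 11 and 8.57 CPM in Control to 16.8, 16.3, 10.9 and 16 CPM in KO mice. KO mouse 5 lay within the Control range and the other KO mice above it (0.54 ± 0.15, edgeR adjusted p = 0.0381). Its footprints, from 3.81 to 8.33 CPM, overlapped between genotypes (-0.13, edgeR adjusted p = 0.748). Robo4, the Robo of endothelium, passed no test. Among the ligands, Slit2 footprints were at 92.6, 87.6 and 92.7 CPM in Control and 78, 73.8 and 71.1 CPM in KO mice, without overlap (-0.29 ± 0.066, edgeR adjusted p = 0.000263). Slit3, with 112, 124 and 127 CPM in Control and 98.2, 116 and 109 CPM in KO mice, overlapped in KO mouse 4 (-0.17 ± 0.058, edgeR adjusted p = 0.0183). Its call was lost without Control mouse 3 or 9 or KO mouse 2. Slit1 (-0.13, edgeR adjusted p = 0.0927) did not pass, and no Slit was called in RNA or TE.

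Of the 5 netrin receptors, Dcc, Unc5b, Unc5c and Unc5d fell in footprints and Unc5a did not pass, where 13.6% of all genes fell. None of the 4 netrins passed a test, where 25.5% of all genes were called in footprints. Dcc, the receptor for netrin attraction, was at 63.4, 63.7 and 56.9 CPM in Control and 52.1, 46.7 and 45.6 CPM in KO footprints. The groups were separate, with a change of -0.35 ± 0.081 (edgeR adjusted p = 0.000378). Dcc RNA averaged 62.3 ± 4.31 CPM (SD, n = 4) in Control and 62.1 ± 4.59 CPM (SD, n = 4) in KO mice, and its TE change of -0.35 ± 0.11 fell short of the threshold (edgeR adjusted p = 0.0577). The Unc5 receptors mediate netrin repulsion. Unc5d footprints were at 62.7, 54.5 and 50.2 CPM in Control and 38.8, 40.2 and 43.5 CPM in KO mice (-0.43 ± 0.087, edgeR adjusted p = 4.26e-05). Unc5d RNA was at 89.7, 78.7, 75.9 and 82.7 CPM in Control and 62.6, 61.2, 78.7 and 64 CPM in KO mice, where KO mouse 5 lay in the Control range (-0.3 ± 0.083, edgeR adjusted p = 0.0405).

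Unc5b and Unc5c also fell in footprints, by 0.3 and 0.28 on the log2 scale. The Unc5b call was lost without any of Control mice 1, 3 and 9 and KO mice 2 and 10, and the Unc5c call without Control mouse 9 or KO mouse 10. Unc5a went the other way and in RNA only, from 62.7, 58.2, 66.6 and 70.7 CPM in Control to 77.9, 76, 73.7 and 80.9 CPM in KO mice, all above Control (0.25 ± 0.068, edgeR adjusted p = 0.0361). Its footprints changed by 0.04 (edgeR adjusted p = 0.79), and the difference between assays did not pass (TE -0.22, edgeR adjusted p = 0.266). Ntn1, the netrin with the most footprint counts, was at 13.9, 12.9 and 13.7 CPM in Control and 10.9, 12.7 and 10 CPM in KO mice (-0.26, edgeR adjusted p = 0.262). The Ntn1 footprint libraries did not overlap, although the test was not passed.

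Ephrins and Eph receptors moved both ways in footprints. Of 12 Eph receptors 2 rose and 3 fell (41.7% called), and of 7 ephrins 1 rose and 1 fell (28.6%), against 25.5% of all genes. Epha4, a receptor of both ephrin classes, had the most footprint counts of the Eph genes, at 464, 474 and 476 CPM in Control and 496, 512 and 507 CPM in KO mice. All KO libraries were higher, by 0.1 ± 0.03 on the log2 scale (edgeR adjusted p = 0.00717), and its RNA changed by 0.01 (edgeR adjusted p = 0.916). The footprint call of Epha4 was lost with DESeq2 (adjusted p = 0.0501) and in one fit over all 14 libraries (edgeR adjusted p = 0.205). Ephb6, an Eph receptor without kinase activity, rose from 87.2, 97.1 and 99.7 CPM to 110, 113 and 103 CPM (0.19 ± 0.06, edgeR adjusted p = 0.0109). Its call was lost without Control mouse 1 or KO mouse 4.

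Epha5 and Epha6, receptors of ephrin-A ligands, fell in footprints. Epha5 was at 188, 193 and 188 CPM in Control and 143, 163 and 155 CPM in KO mice (-0.3 ± 0.047, edgeR adjusted p = 9.8e-08). Its RNA spanned 119 to 164 CPM in Control and 123 to 197 CPM in KO mice, with mouse 5 alone at the top. Epha6 changed by -0.26 in footprints (edgeR adjusted p = 0.0157) and by -0.26 in RNA (edgeR adjusted p = 0.0512), and its footprint call was lost without Control mouse 1 or KO mouse 2. Epha3 was lower in both assays. Epha3 RNA was at 30.3, 28.1, 30.2 and 27 CPM in Control and 21.5, 20.4, 22.9 and 21.1 CPM in KO mice, well separated (-0.43 ± 0.077, edgeR adjusted p = 0.00481). Its footprints were sparse and overlapped, at 11.1, 17.1 and 12.8 CPM against 11.2, 8.72 and 10.7 CPM (-0.45 ± 0.17, edgeR adjusted p = 0.0443). Without Control mouse 3 the footprint call of Epha3 had an edgeR adjusted p of 0.439, and it was lost as well without KO mouse 2, 4 or 10.

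Among the ephrins, membrane-bound ligands, Efna3 was the one member whose TE rose. Efna3 footprints were at 17.9, 21.9 and 18.6 CPM in Control and 25.7, 25.5 and 25.5 CPM in KO mice, all higher (0.38 ± 0.12, edgeR adjusted p = 0.0135). Its RNA pointed down, with 27, 26.5, 32 and 32.6 CPM in Control and 25.9, 25, 25.2 and 25.3 CPM in KO mice. The RNA groups did not overlap, but the change of -0.22 ± 0.084 was not called (edgeR adjusted p = 0.12). TE rose by 0.6 ± 0.15 (edgeR adjusted p = 0.013), a call lost without mouse 4 (edgeR adjusted p = 0.055) and with the mouse as a replicate block (edgeR adjusted p = 0.105), and the footprint call was lost without Control mouse 1 or 9. Efnb3, the ephrin with the most footprint counts, fell from 64.3, 60.1 and 59.6 CPM in Control to 49.9, 50.5 and 42 CPM in KO mice (-0.37 ± 0.081, edgeR adjusted p = 0.000205).

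Efna5 and Efnb2 rose in RNA without a call in footprints. Efna5 RNA was at 6.35, 6.22, 6.94 and 6.91 CPM in Control and 8.98, 8.32, 12.9 and 10.2 CPM in KO mice, all higher (0.59 ± 0.15, edgeR adjusted p = 0.0248). Its footprints were at 26.4, 24.3 and 23.8 CPM against 24.7, 25.7 and 27 CPM (0.07, edgeR adjusted p = 0.73). Counted in the exon columns the RNA change of Efna5 did not pass (edgeR adjusted p = 0.094). Efnb2 RNA rose from 38.1, 36, 37.5 and 40.8 CPM to 46.6, 45.4, 50.9 and 44.1 CPM (0.29 ± 0.074, edgeR adjusted p = 0.0279). Its groups were separate, and its footprints changed by 0.09 (edgeR adjusted p = 0.461).

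Semaphorins, the largest ligand family, had 5 falls and 1 rise in footprints among 20 genes, with a median of -0.11. The 30% called lay near the 25.5% of all genes. Sema7a, a membrane-anchored semaphorin that binds Plxnc1 and integrins, had the most footprint counts and was the one member that rose in both assays. Its footprints were at 222, 230 and 220 CPM in Control and 273, 272 and 281 CPM in KO mice (0.3 ± 0.038, edgeR adjusted p = 4.34e-10). Its RNA was at 118, 115, 119 and 100 CPM in Control and 137, 131, 137 and 130 CPM in KO mice (0.24 ± 0.062, edgeR adjusted p = 0.0326). No library overlapped in either assay and the TE change was not called (0.05, edgeR adjusted p = 0.749). The RNA call of Sema7a was kept in 2 of the 8 fits that left out a mouse and was lost with the exon columns (edgeR adjusted p = 0.0686), while its footprint call held in every setting. Its plexin Plxnc1 fell in the same libraries, as described above.

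The falls were in Sema4a (-0.26), Sema5a (-0.26), Sema4d (-0.2), Sema6a (-0.18) and Sema6b (-0.15). Sema4a footprints went from a mean of 62.5 ± 3.73 CPM (SD, n = 3) to 51.8 ± 0.629 CPM (SD, n = 3) without a change called in RNA (0.05, edgeR adjusted p = 0.732). Sema5a was lower to a like extent in RNA (-0.23, edgeR adjusted p = 0.0531). The Sema5a call held in every fit without a mouse and was lost with DESeq2 (adjusted p = 0.0572). The Sema4a call was lost without Control mouse 3, that of Sema4d without Control mouse 1 or 3 or KO mouse 4 or 10, that of Sema6a without Control mouse 1 or 9 or any KO mouse, and that of Sema6b without Control mouse 3 or 9 or KO mouse 4 or 10. Sema3b, a secreted semaphorin, fell in RNA, from 5.54, 4.04, 4.63 and 3.31 CPM to 2.64, 2.36, 2.9 and 3.06 CPM (-0.68 ± 0.2, edgeR adjusted p = 0.0478). Its groups were close. The Sema3b call was kept in 6 of 17 settings and in 1 of 8 fits that left out a mouse, and it was lost with DESeq2 (adjusted p = 0.0599) and in a fit blocked on the title prefix (edgeR adjusted p = 0.0569). Sema4g rose in RNA, from 16.5, 16.2, 15.5 and 16.3 CPM to 18.9, 21.1, 19.1 and 21.3 CPM (0.32 ± 0.083, edgeR adjusted p = 0.0326), with 4.95 to 9.4 CPM in footprints and no change called there. The Sema4g RNA call was kept in 2 of 8 fits that left out a mouse, and it was lost with the exon columns (edgeR adjusted p = 0.169) and in a fit blocked on the title prefix (edgeR adjusted p = 0.0516).

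**Figure D3:**
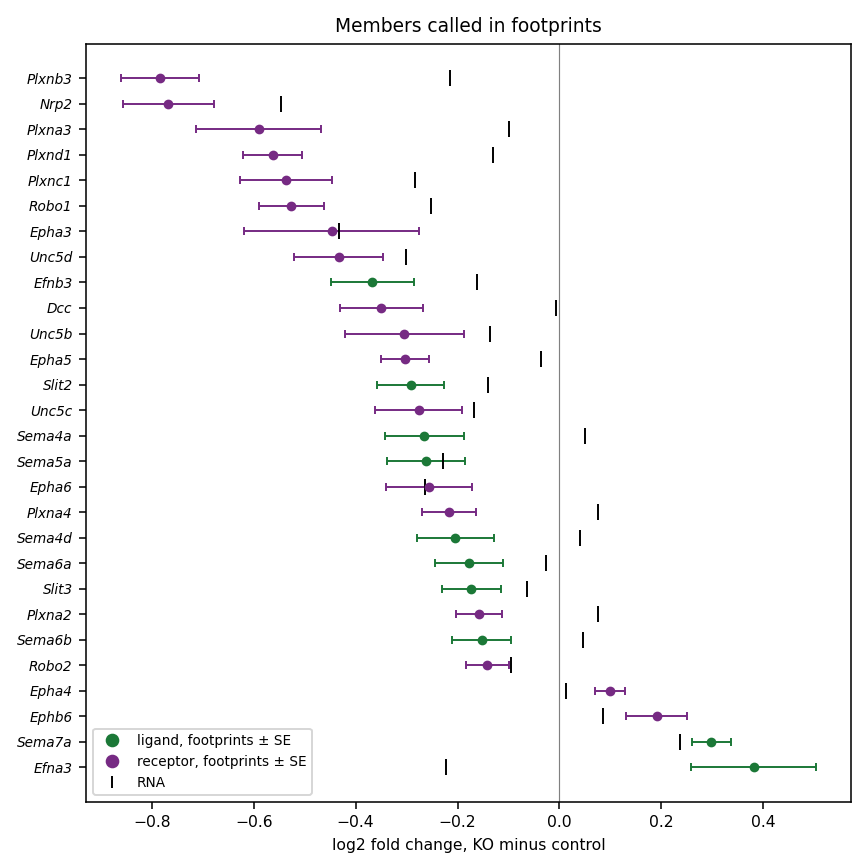
Footprint log2 fold change (KO minus Control, horizontal) with its SE for the 28 members called, ligands green and receptors purple, and the RNA change of the same gene as a black bar. Members run from Plxnb3 at -0.78 to Efna3 at 0.38, and for most of those that fell the RNA bar lies between the footprint value and zero.

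**Figure D4:**
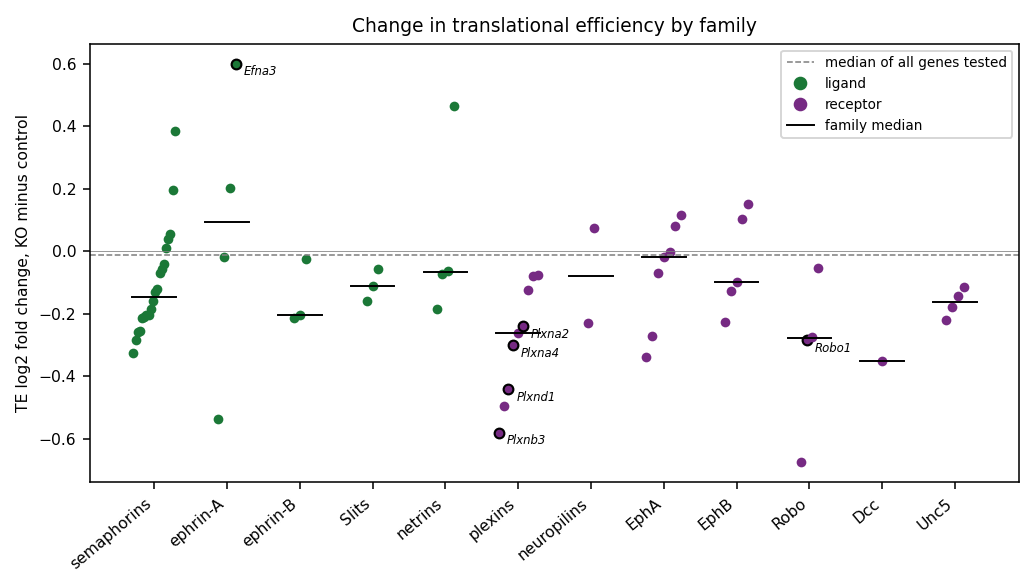
TE log2 fold change (KO minus Control, vertical) of each member tested, by family, with short bars at family medians, a dashed line at the median of all genes and black rims on the 6 called members. All 9 plexins, 4 Robo, 4 Unc5, 3 Slit and 3 ephrin-B genes and Dcc lie below zero, and the other families lie on both sides.

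In Control mice, footprints per RNA had a higher median in ligands than in receptors, a difference that was not tested. The log2 ratio of footprint CPM to RNA CPM within a gene had a median of 0.1 over 34 ligands, of which 20 were positive, and of -0.38 over 32 receptors, of which 25 were negative. The median of all 12145 genes was -0.13, and 6837 of them were negative. The region counted is not given in the sources used here. Efna5 had the highest ratio of the members, 1.91 (percentile 99.1 of all genes), followed by Sema7a at 0.98. On the RNA columns without a suffix, Epha6 (-1.23) and Plxnc1 (-1.21) were lowest, and EphB receptors as a family were at -0.75. With the exon columns, Unc5d (-1.34), Sema5a (-1.04) and Sema4g (-1.02) were lowest among the members. Epha6 was then at -0.57 and Plxnc1 at -0.92, and EphB receptors ran from -0.62 (Ephb4) to 0.73 (Ephb3). With the RNA counted in the exon columns the median of ligands was -0.05 and that of receptors -0.24, beside -0.04 over all genes, and the ratio of Efna5 turned to -0.48. In that setting 16 ligands were positive, and 20 receptors and 6272 of all genes were negative.

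**Figure D5:**
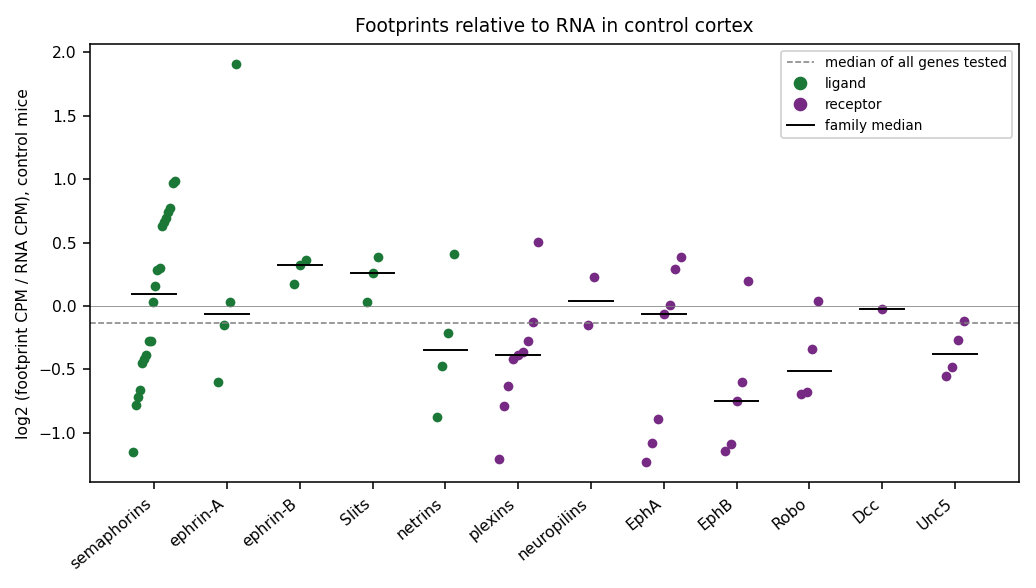
Log2 ratio of footprint CPM to RNA CPM in Control mice (vertical) of the 66 members tested in both assays, by family, with family medians as short bars and the median of all genes as a dashed line. Efna5 stands alone at 1.91, and 25 of 32 receptors lie below zero, beside 6837 of all 12145 genes with a negative ratio.

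Genes that work with these ligands and receptors also had more falls than rises in footprints. Of 32 co-receptors, adhesion partners and other cues tested, 19 fell and 2 rose in footprints (65.6% called, against 25.5% of all genes), and 7 fell and 1 rose in TE (25% against 7.81%). Their Control footprint means ran from 5.83 CPM (Ryk) to 1368 CPM (Rtn4). Ptprd, at 451 CPM, was called at a footprint change of -0.13. The part of counting depth in the shares called, here and among the effectors below, was not tested. In RNA 2 fell, a share of 6.25% that is below the 7.41% of all genes. The largest falls were in Cdon (-0.8) and Ret (-0.52), cell-surface receptors, Dscaml1 (-0.49), an adhesion molecule, and Ntng1 (-0.42), a membrane-anchored netrin relative. The rises were in Lrrc4c (0.27), the partner of Ntng1, and in the Nogo receptor gene Rtn4r (0.24). Of 50 cytoplasmic effectors, 16 fell and 2 rose in footprints (36% called), and 6 fell in TE (12%). In RNA 2 fell and 2 rose, a share of 8% that is near that of all genes. The Slit-Robo GTPase activators Srgap1 (-0.67) and Srgap3 (-0.55), the plexin-B partner Arhgef11 (-0.45) and the Hedgehog co-receptor gene Boc (-0.4) had the largest TE falls, and the FLRT adhesion gene Flrt3 (0.34) the one rise. The 6 RNA calls of both lists were Srgap1, which rose by 0.41, the GTPase gene Rac1, which rose by 0.32, and Ptk7 (-0.37), Rnd1 (-0.3), Tiam1 (-0.24) and Flrt3 (-0.22), which fell. The same libraries stand behind these counts and those of the ligands and receptors.

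How far the calls held differed between assays. Of the 28 footprint calls, 16 held in all 6 fits without a mouse and 12 in all 12 alternative settings, Dcc, Efnb3, Nrp2, Plxna3, Plxna4, Plxnb3, Plxnc1, Plxnd1, Robo1, Sema7a, Slit2 and Unc5d. Of the 6 TE calls, Plxnb3 and Plxnd1 held in all 19 settings run, and Plxna2, Plxna4 and Robo1 each in 7. With the libraries of Control mice 1 and 3 summed, and those of KO mice 2, 4 and 7, no member was called in RNA. The KO group then held that sum and mouse 5, and the Control pair had differed by 1.99 (chi-square per degree of freedom). In mice 5 to 8 alone, no member was called in RNA either. No called member changed direction in any setting. Other marker lists moved in the same libraries. Footprints of 6 hypothalamus markers summed to 110 to 118 CPM in Control and 41.6 to 47.9 CPM in KO mice, with all 5 tested called lower, and their RNA to 39.3 to 74.1 and 20.2 to 24.2 CPM, with 4 called lower. Footprints of 6 mural and meningeal markers summed to 715 to 728 and 477 to 511 CPM, with 4 called lower and 1 higher, and their RNA to 307 to 430 and 254 to 318 CPM, with 3 called lower. Footprints of 7 inhibitory neuron markers summed to 1803 to 1859 CPM in Control and 1948 to 1978 CPM in KO mice, with 4 called higher and 1 lower, and their RNA overlapped between genotypes, at 864 to 922 and 894 to 1023 CPM. Their part in the changes of the guidance genes was not tested.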

How the data were processed

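Gene counts came from one table that the authors deposited as whole-number counts without normalization. The submitters' processing notes name Bowtie2, STAR 2.5, featureCounts, Subread 1.4.6, mm9 and mm10, with no role or order; strand, annotation and region counted are not given in the sources used here. Per the labels' protocols, footprints came from monosomes of RNase-treated lysate and RNA libraries kept strand after removal of ribosomal RNA. RNA columns without a suffix, which hold the same genes as the footprint columns (2849 genes have no value in either), were used, with the exon columns as an alternative.

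RNA and footprints were each tested with edgeR 4.0.16 (R 4.3.3; TMM, filterByExpr minimum count 10, quasi-likelihood F test, group means only, two-sided, Benjamini-Hochberg, threshold 0.05), and TE as the interaction over 14 libraries. SEs were derived from the F statistic. CPM uses TMM factors. Scripts were tested on simulated data. Genotype and mouse number come from the labels. Mice 1 to 4 are in both assays, and deviations of the same mouse from its group means correlated between assays at 0.00279, 0.0106, 0.0353 and -0.0123 over 12145 genes. That RNA and footprint libraries with one mouse number come from the same animal rests on the labels, and these correlations do not show it. The mouse was therefore used as a replicate block only in an alternative. The title prefix, whose meaning the labels do not give, groups the footprint libraries into pairs of 1 Control and 1 KO mouse and sets RNA of mice 5 to 8 apart. Other alternatives were size factors, DESeq2 1.42.0, no filter, a block on the title prefix, exon columns, summed libraries, subsets of mice and leaving out each mouse.

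Members and gene lists were chosen with earlier results of these data known. Values per library are given for members called in TE, for up to 8 rises and 8 falls called in each assay at a mean of at least 1 CPM, and for the most counted member of each family. Pathway genes named are up to 4 rises and 4 falls per test. Relations with protein length were not analysed here. Promoter windows are RefSeq GRCm38.p6, of which 59 members had one, without the 50 bases after the start.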

Additional observations from a re-analysis of the deposited data

Results flagged for a closer look

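In RNA, where each genotype has 4 libraries, 1 library lay apart from the other 3 in 11 of 74 groups examined by Dixon's ratio, of which chance gives about 1 in 20. In 8 of these groups the library apart was that of KO mouse 5. It was high for Epha5 (197 CPM, others 123 to 125), Slit2 (92.5, others 76.7 to 77.3), Slit3 (92.7, others 87 to 87.9), Unc5d (78.7, others 61.2 to 64), Sema5a (75, others 62.4 to 64.4) and Dcc (69, others 59.3 to 60.4), and low for Robo3 (10.9, others 16 to 16.8). The median deviation of all receptors from their mean over the RNA libraries of both genotypes was 0.0468 in KO mouse 5. It was -0.0459 to -0.0308 in the other KO mice. These deviations hold the difference between genotypes as well as that between mice. KO mouse 2 was low for Plxna2 (256 CPM, others 262 to 263) and Control mouse 8 for Epha6 (117 CPM, others 129 to 131). The median deviation of the ligands, from the mean over both genotypes as well, was -0.0442 in Control mouse 3 and -0.0136 to -0.00771 in the other Control mice. The other KO RNA libraries are those that differed little beyond counting noise.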

How the results depend on the processing

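Leaving out 1 mouse gave 356 (without KO mouse 4) to 1763 (without Control mouse 8) genes called in RNA, with 0 to 8 members higher and 2 to 9 lower and medians of -0.0181 to 0.0274 in ligands and -0.0591 to 0.00466 in receptors. It gave 2558 to 2855 genes in footprints, with 2 to 4 members higher and 18 to 20 lower and medians of -0.128 to -0.0454 and -0.206 to -0.142. It gave 419 (without mouse 2) to 1289 (without mouse 5) genes in TE, with 0 to 2 higher and 2 to 7 lower and medians of -0.157 to -0.0829 and -0.178 to -0.124. In RNA, no filter gave a ligand median of 0.0293 and the exon columns 3 members higher. Summing the libraries of Control mice 1 and 3, and of KO mice 2, 4 and 7, left 36 genes, 0 members higher and 0 lower, and a receptor median of 0.034. Mice 5 to 8 alone left 88 genes, 0 and 0 members, and 0.0448. Without Control mouse 8 and KO mouse 5, chosen after the data were seen, 3063 genes and 14 members lower were called in RNA, with medians of 0.0317 and -0.0566, and in TE 2035 genes, 2 members higher and 8 lower. In footprints, plain library sizes gave 15 members lower and medians of -0.0535 and -0.0807, DESeq2 1801 genes, 1 member higher and 12 lower, and one fit over all libraries 1673 genes, 2 higher and 14 lower. In TE, plain library sizes gave 2 lower and medians of -0.0494 and -0.0939, no filter 2 lower, the title prefix as a block 2 lower, and summed libraries 579 genes and 3 lower. The replicate block, which pairs both assays of mice 1 to 4, called 1811 genes in TE (798 shared with the 949), 0 members higher and a ligand median of -0.0579. The Control ratio had a ligand median of 0.188 in mice 1 and 3, and of -0.0489 with exon columns, and a receptor median of -0.242 there. The cause of these shifts was not tested. Counting depth limits members with few counts, such as Ntn5, Sema3b, Sema3g, Efna1 and Efna2.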
